A study of Mus musculus with 2 samples.

Results

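Bdnf, Ntf3, Ntrk2, Ntrk3, Ngfr and Sort1 encode 2 neurotrophins and 4 of their receptors, and they were followed in the aged hippocampus of the mouse. The genes were chosen by name, as ligands and receptors of 1 signalling system, and were matched by symbol and by gene identifier to the deposited tables. All 6 were found, among 55536 annotated genes. The 2 total RNA libraries form 1 group, made from the region labelled layer of hippocampus in female B6CASTF1/J mice aged 18 to 20 months, which are F1 animals of a cross between C57BL/6J and CAST/EiJ. The deposited tables do not separate the parental alleles. The labels give a starting amount of 300 ng of RNA and the addition of ERCC RNAs, a synthetic standard, for both. The libraries carry different biosample labels and the same donor label, so their spread may be technical. No other strain, age, sex or region was used here. No contrast between groups exists and no p-value was computed. Differences between replicate 2 and replicate 1 describe these libraries.

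Neurotrophins are secreted growth factors that are made as proproteins and cleaved to a mature form. Mature brain-derived neurotrophic factor, the product of Bdnf, activates the receptor tyrosine kinase TrkB, encoded by Ntrk2. Neurotrophin-3, the product of Ntf3, activates TrkC, encoded by Ntrk3. Both Trk genes also make truncated receptors that bind ligand on the cell surface and lack the kinase domain. The uncleaved proneurotrophins bind the p75 receptor, encoded by Ngfr, together with sortilin, encoded by Sort1, which also sorts proBDNF inside the cell. In the adult hippocampus BDNF is made mainly by excitatory neurons and is known for its part in synaptic plasticity, and truncated TrkB is known as the main form in astrocytes.

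The letters that tell the forms of the receptors apart begin at the branch points of Ntrk2 and Ntrk3, read from the GENCODE M21 transcripts. All coding transcripts of Ntrk2 with a full-length or truncated end share 11 coding exons with 1393 coding bases and then branch. Below, the last 24 shared coding bases are in lower case and the bases after the branch are in capitals, up to the stop codon in Ntrk2-202 and cut short in the others. The full-length branch opens at chr13:58985802-58985990, that of Ntrk2-202 ends its coding sequence at chr13:58932023-58932057, and that of Ntrk2-205 at chr13:58878339-58878421, all on the plus strand of mm10.
Ntrk2-201, full-length: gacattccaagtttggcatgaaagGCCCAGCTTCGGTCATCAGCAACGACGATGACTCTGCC
Ntrk2-202, truncated: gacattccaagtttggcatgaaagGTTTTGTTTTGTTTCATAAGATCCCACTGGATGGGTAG
Ntrk2-205, truncated: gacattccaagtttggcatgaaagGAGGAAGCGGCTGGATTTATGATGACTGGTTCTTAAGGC

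After the branch the full-length transcript had 1070 further coding bases, whereas Ntrk2-202 had 35, Ntrk2-205 had 83, Ntrk2-208 had 5 and Ntrk2-209 had 74. The ending of Ntrk2-202, shared by Ntrk2-204, gives a protein of 476 codons and is that of the receptor known as TrkB-T1. The full-length coding sequence has 821 codons.

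Ntrk3 branches in the same manner after 12 shared coding exons with 1585 coding bases. The full-length branch opens at chr7:78260284-78260414 and the truncated one at chr7:78304292-78304426, both on the minus strand of mm10, with capitals again marking the bases after the branch.
Ntrk3-201, full-length: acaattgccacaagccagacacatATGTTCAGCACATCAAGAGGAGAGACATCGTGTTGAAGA
Ntrk3-202, truncated: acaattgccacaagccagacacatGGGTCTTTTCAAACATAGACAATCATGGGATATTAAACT

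The full-length branch of Ntrk3 had 890 further coding bases and the truncated branch 251. The full-length coding sequence without inserts has 825 codons and the truncated one 612 codons.

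Bdnf is read from many promoters, each with its own 5′ exon spliced to 1 shared exon that codes for the mature factor. The 250 bases before the starts of exons I, IV and V are shown because exons I and IV are known for their response to neuronal activity, while exon V lies between the abundant exons IV and VI and was listed at 0. The sequences are from RefSeq promoter tables of build GRCm38.p6, plus strand. Of the 8 first exons annotated for Bdnf, 6 had a window in that table. Capitals mark matches to TGACGTCA, TCACGTCA, TCACGTAA or CACGTG on either strand, which in these windows did not overlap one another.
Exon I, chr2:109674450-109674699: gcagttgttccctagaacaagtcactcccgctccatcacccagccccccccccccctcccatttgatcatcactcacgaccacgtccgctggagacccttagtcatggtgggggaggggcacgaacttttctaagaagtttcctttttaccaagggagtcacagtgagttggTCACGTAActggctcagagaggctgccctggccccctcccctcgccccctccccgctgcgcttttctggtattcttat
Exon IV, chr2:109692186-109692435: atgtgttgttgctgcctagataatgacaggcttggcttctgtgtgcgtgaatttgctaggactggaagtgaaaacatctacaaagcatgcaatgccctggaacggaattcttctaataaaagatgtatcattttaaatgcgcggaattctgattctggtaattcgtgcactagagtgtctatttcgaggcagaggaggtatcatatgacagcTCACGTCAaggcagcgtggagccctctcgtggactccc
Exon V, chr2:109692777-109693026: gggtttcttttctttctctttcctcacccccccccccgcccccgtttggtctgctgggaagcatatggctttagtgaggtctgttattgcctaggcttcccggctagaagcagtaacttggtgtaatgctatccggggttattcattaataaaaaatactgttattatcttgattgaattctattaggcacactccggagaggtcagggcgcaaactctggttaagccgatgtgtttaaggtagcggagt

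The window before exon IV held TCACGTCA, beginning 38 bases before the start, and the window before exon I held TCACGTAA, beginning 78 bases before the start. Among 32851 promoter windows of 250 bases, TCACGTCA was present in 0.350%, TCACGTAA in 0.146%, TGACGTCA in 1.55% and CACGTG in 6.02%. TCACGTCA and TCACGTAA were chosen after the Bdnf windows had been read, so these shares are a description. Neither TGACGTCA nor CACGTG was in any of the 6 windows, and the windows of exons III, V and VII and of the last first exon held none of the 4 motifs.

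Transcripts of Sort1, Ntrk2 and Ntrk3 were more abundant than those of both ligands, and Ngfr, the fourth receptor, was below both. Levels are given as TPM, the authors' abundance per effective length, which sums to 1000000 over a library and so may be set side by side between genes. Sort1 had 145 TPM in replicate 2 and 151 TPM in replicate 1, a mean of 148 ± 4.08 (SD, n = 2). Ntrk2 had 136 TPM in each library, 136 ± 0.0919 (SD, n = 2). Both libraries held more Sort1 than Ntrk2, which it exceeded by 1.06-fold in replicate 2 and by 1.10-fold in replicate 1.

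Ntrk3 had 68.8 TPM in replicate 2 and 73.5 TPM in replicate 1, 71.2 ± 3.33 (SD, n = 2). Bdnf had 12.1 TPM in replicate 2 and 11.9 TPM in replicate 1, with an SD of 0.113 (n = 2). Ntf3 had 5.62 and 5.50 TPM, 5.56 ± 0.0849 (SD, n = 2). Ngfr was the lowest, with 0.950 TPM in replicate 2 and 0.760 TPM in replicate 1, 0.855 ± 0.134 (SD, n = 2). No library of any of these genes reached into the range of its neighbour in the order. The same order was found in the second set of tables, whose layout is that of kallisto and whose TPM was a median of 1.67 times that of the RSEM-layout tables over 12897 protein-coding genes. In bulk tissue, fewer cells of a type and less RNA per cell cannot be told apart.

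**Figure D1:**
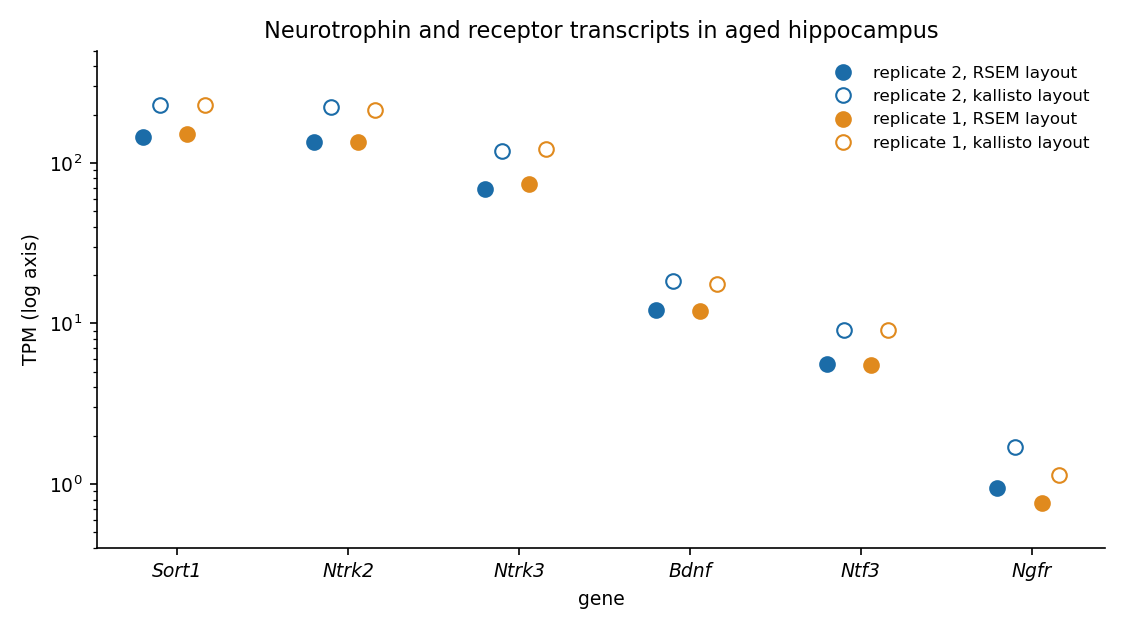
TPM on a log axis of the 6 genes in each library, with replicate 2 left of replicate 1, filled points for the RSEM-layout tables and open points for the kallisto-layout tables. Sort1 and Ntrk2 sit above 100 TPM in both layouts, Bdnf and Ntf3 between 5 and 20 TPM, and Ngfr near 1 TPM.

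Among 22015 nuclear protein-coding genes ordered by mean TPM, Sort1 stood at rank 425, Ntrk2 at 486 and Ntrk3 at 1223. Bdnf stood at rank 7093, Ntf3 at 9720 and Ngfr at 13100. Of those genes, 12720 had at least 1 TPM in both libraries, a level that 5 of the 6 genes reached and Ngfr did not. In the kallisto layout Ngfr was above it, with 1.70 TPM in replicate 2 and 1.13 TPM in replicate 1.

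Over all annotated transcripts, each Trk gene exceeded the gene of its preferred ligand by a similar factor. The TPM of Ntrk2 was 11.3 times that of Bdnf in replicate 2 and 11.5 times in replicate 1. The TPM of Ntrk3 was 12.2 times that of Ntf3 in replicate 2 and 13.4 times in replicate 1. Between the receptors, Ntrk2 exceeded Ntrk3 by 1.98-fold and 1.85-fold, and between the ligands Bdnf exceeded Ntf3 by 2.14-fold and 2.16-fold, with replicate 2 given before replicate 1. These are ratios of transcripts and not of proteins. They include transcripts not annotated as protein-coding, which took 17.6% of Ntrk3 TPM in replicate 2 and 21.6% in replicate 1. For Ntrk2 that share was 1.29% and 2.14%, so the ratio for Ntrk3 would fall more if only coding transcripts were used.

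Bdnf, the ligand of TrkB, was carried mainly by transcripts that begin at exons VI and IV. The gene lies at chr2:109674700-109727007 on the plus strand of mm10 and has 11 annotated transcripts, all protein-coding, in 8 groups by first exon. Exon VI, at chr2:109693563-109693909, is known to be used in many cell types, and its transcript Bdnf-205 had 5.06 TPM in replicate 2 and 4.54 TPM in replicate 1. That is 42.0% and 38.2% of the Bdnf TPM, 40.1 ± 2.72% (SD, n = 2). Exon IV, at chr2:109692436-109692774, is the first exon best known for induction by calcium entry, and its transcript Bdnf-209 had 2.52 TPM in replicate 2 and 3.62 TPM in replicate 1. That is 20.9% and 30.4% of the Bdnf TPM, 25.7 ± 6.72% (SD, n = 2).

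The order of exons VI and IV was not stable between the tables. In the kallisto layout exon VI took 43.9% in replicate 2 and 29.3% in replicate 1, and exon IV took 24.5% in replicate 2 and 40.2% in replicate 1. Exon VI therefore led in replicate 2 and exon IV in replicate 1. The deposited credibility intervals of the RSEM-layout TPM overlapped between the libraries for both, at 3.67 to 5.70 in replicate 2 and 3.03 to 5.08 in replicate 1 for exon VI. For exon IV they were 1.59 to 3.16 in replicate 2 and 2.39 to 4.31 in replicate 1. Within replicate 2 the intervals of exons VI and IV did not overlap, and within replicate 1 they did. The files do not state the level of these intervals.

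Exons II and I came next. The 3 transcripts that begin in exon II, at chr2:109675897-109676395, together had 2.10 TPM in replicate 2 against 1.86 TPM in replicate 1, 17.4% and 15.6% of the Bdnf TPM. Most of this was on Bdnf-210, at 1.52 and 1.41 TPM, while Bdnf-207 had 0.310 and 0.300 TPM. In the kallisto layout exon II took 18.1% in replicate 2 and 18.7% in replicate 1. Exon I, at chr2:109674700-109675339, had 1.85 TPM in replicate 2 against 1.04 TPM in replicate 1, 15.4% and 8.74% of the Bdnf TPM, with intervals of 1.18 to 2.39 and 0.571 to 1.50 that overlapped. The kallisto layout gave exon I 13.6% in replicate 2 and 11.8% in replicate 1.

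The remaining first exons were at or near 0. Exon V, at chr2:109693027-109693107, was listed at 0 in both libraries and both layouts, with an upper interval bound of 0.380 in replicate 2 and 0.443 in replicate 1, in TPM. Exon III took 1.16% in replicate 2 and was listed at 0 in replicate 1, and exon VII took 3.15% in replicate 2 and 4.87% in replicate 1. The last first exon was listed at 0 in replicate 2 and took 2.18% in replicate 1. In the kallisto layout these last 3 were each at or below 0.0113%. Transcripts from exon I and from the last first exon carry their own upstream coding start, of 257 and 289 codons against 249 codons for the rest, and together they took 15.4% in replicate 2 and 10.9% in replicate 1.

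**Figure D2:**
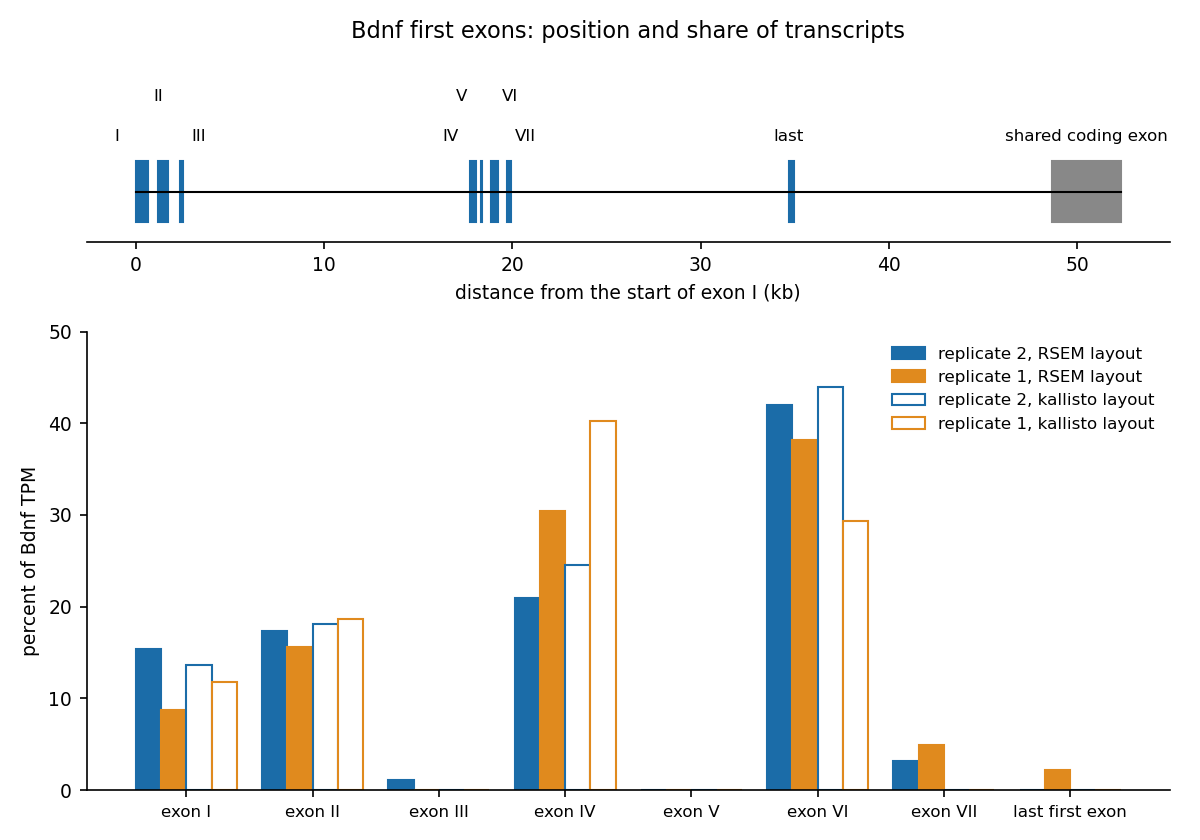
Above, the annotated first exons of Bdnf and the shared coding exon by distance in kb from the start of exon I. Below, the percent of Bdnf TPM on each first exon, with replicate 2 in blue and replicate 1 in orange, filled for the RSEM layout and open for the kallisto layout. Exons VI and IV are the tallest, exon VI at 42.0% and 38.2% in the RSEM layout, and exon V is at 0.

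Ntf3, the ligand of TrkC and in rodents best known from dentate granule cells, had about the same level in both libraries, while its first exon could not be assigned. The gene lies at chr6:126101412-126166910 on the minus strand, with 3 coding transcripts that share the exon holding the mature protein. The RSEM-layout tables put 97.9% of its TPM in replicate 2 and 92.5% in replicate 1 on Ntf3-203, whose first exon is at chr6:126164730-126164960. The kallisto-layout tables put 5.5e-04% and 0.00697% there. They placed all the rest on Ntf3-201 and Ntf3-202, which begin upstream at a first exon within chr6:126166540-126166910. Of that, Ntf3-202 took 76.3% in replicate 2 and 83.4% in replicate 1. The gene had 191 counts in replicate 2 and 175 in replicate 1, and its level in the kallisto layout was 9.04 and 9.05 TPM.

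Ntrk2, the BDNF receptor, was present as truncated and full-length transcripts at similar levels, with more of the truncated kind per length. The gene lies at chr13:58806569-59133970 on the plus strand and has 10 annotated transcripts, of which 7 code for a receptor with a full-length or truncated end. Truncated transcripts summed to 78.6 TPM in replicate 2 against 77.3 TPM in replicate 1, and full-length ones to 55.9 and 56.2 TPM. The full-length share was 41.6% in replicate 2 and 42.1% in replicate 1, 41.8 ± 0.388% (SD, n = 2). The kallisto layout gave 44.8% and 45.0%. Counted in reads, without regard to length, the full-length share was 51.7% in both libraries of the RSEM layout. The more abundant full-length transcript, Ntrk2-201, has 8744 bases against 6846 for the truncated Ntrk2-202. The other full-length transcript, Ntrk2-207, has 4706 bases, fewer than Ntrk2-202 but more than the truncated Ntrk2-204, which has 3049. Truncated transcripts were thus in the majority per length and in the minority by reads. The last exons of the truncated transcripts lie within an intron of the full-length ones. These are total RNA libraries, and whether unspliced RNA added to the truncated values was not tested.

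Most truncated Ntrk2 ended as Ntrk2-202 does. Ntrk2-202 had 44.7 TPM in replicate 2 against 44.5 TPM in replicate 1, and Ntrk2-204, with the same coding end, had 17.9 and 20.2 TPM. Together they took 46.5% of the full-length and truncated TPM in replicate 2 and 48.5% in replicate 1, and in the kallisto layout 49.9% and 50.8%. By TPM the T1 ending was the most frequent single ending of Ntrk2 in both libraries and both layouts. By reads it took 43.9% in replicate 2 and 44.8% in replicate 1 of the RSEM layout, below the full-length ending. Ntrk2-205, with the third branch printed above and 492 codons, took 10.6% in replicate 2 and 7.84% in replicate 1. The kallisto layout gave it only 3.74% and 2.68%. Ntrk2-208 took 1.32% and 0.592%, and Ntrk2-209 was listed at 0 in replicate 2 and took 0.944% in replicate 1.

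Full-length Ntrk2 came from 2 transcripts that differ in their first exon. Ntrk2-201 had 39.5 TPM in replicate 2 against 38.6 TPM in replicate 1, and Ntrk2-207 had 16.4 and 17.6 TPM. Grouped by first exon, coding transcripts beginning as Ntrk2-204 and Ntrk2-207 do took 25.5% in replicate 2 and 28.4% in replicate 1. Those beginning as Ntrk2-201 and Ntrk2-205 do took 40.0% and 36.8%, and those beginning as Ntrk2-202 does took 34.5% and 34.9%. The kallisto layout placed all 3 groups between 30.9% and 34.8%. Each of the first 2 groups held a full-length and a truncated transcript, whereas Ntrk2-202, Ntrk2-208 and Ntrk2-209, the third group, are all truncated as annotated.

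**Figure D3:**
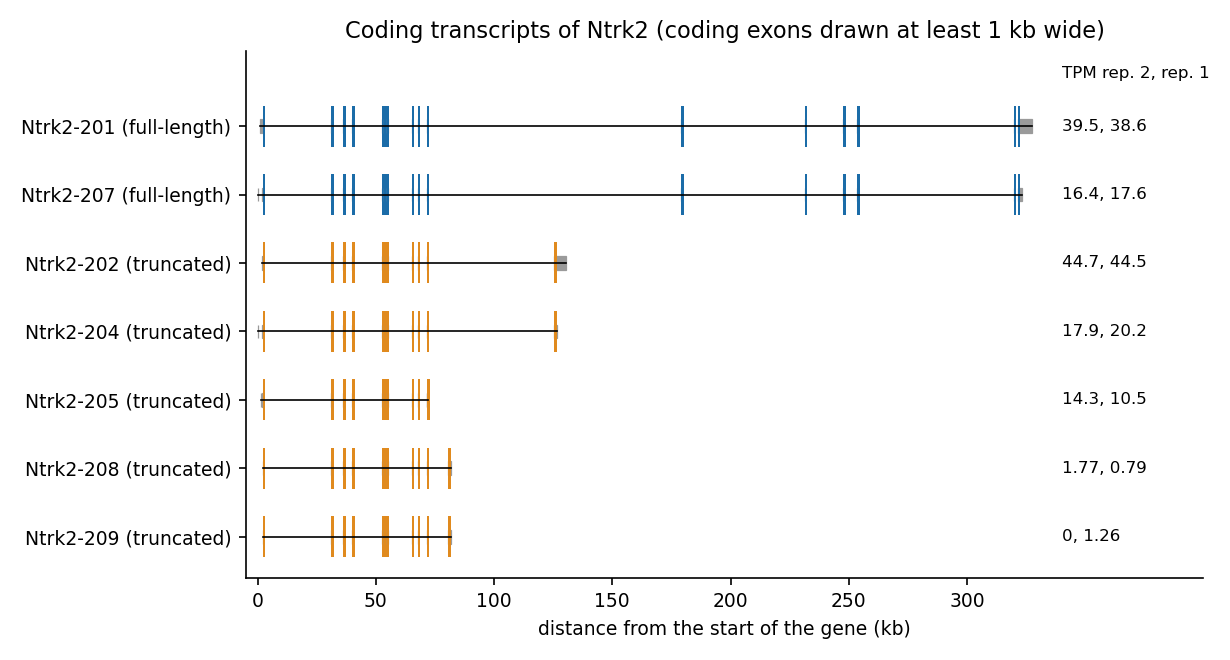
Coding transcripts of Ntrk2 by distance in kb from the start of the gene, with exons in grey and coding exons in blue for full-length and orange for truncated transcripts, drawn at least 1 kb wide to be visible. The TPM of each transcript stands at the right, replicate 2 before replicate 1, and the truncated transcripts end before the kinase exons that only Ntrk2-201 and Ntrk2-207 reach.

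Ntrk3, the receptor of neurotrophin-3, had slightly more full-length than truncated transcripts per length when all full-length transcripts were summed, and far more by reads. The gene lies at chr7:78175959-78738012 on the minus strand and has 20 annotated transcripts. As in Ntrk2, the last exons of the truncated Ntrk3-202 lie within an intron of the full-length transcripts, and a part of unspliced RNA was not tested. Full-length transcripts summed to 30.7 TPM in replicate 2 against 32.4 TPM in replicate 1, and the truncated Ntrk3-202 had 26.0 and 25.3 TPM. Ntrk3-201 alone had 16.3 and 16.6 TPM, below Ntrk3-202, and it was below in the kallisto layout too. The full-length majority by TPM thus rests on adding Ntrk3-205, at 12.8 and 10.7 TPM, and Ntrk3-206. These have 2678 and 2774 annotated bases. The full-length share was 54.2% in replicate 2 and 56.2% in replicate 1, 55.2 ± 1.41% (SD, n = 2), and the kallisto layout gave 53.5% and 54.9%. By reads the full-length share was 78.0% in replicate 2 and 78.9% in replicate 1, because Ntrk3-201 has 19703 annotated bases against 3977 for Ntrk3-202. In both libraries and both layouts this share of TPM was higher for Ntrk3 than for Ntrk2. With all annotated transcripts in the denominator the mean was 44.3% for Ntrk3 and 41.1% for Ntrk2 in the RSEM layout, but 39.4% for Ntrk3 and 43.8% for Ntrk2 in the kallisto layout, so that order rests on which transcripts are counted.

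Part of the Ntrk3 signal was on transcripts that code for no complete receptor. Transcripts not annotated as protein-coding, 3 of them targets of nonsense-mediated decay, took 17.6% of all Ntrk3 TPM in replicate 2 and 21.6% in replicate 1, of which the 435-base Ntrk3-220 had 8.43 and 10.7 TPM on 77.2 and 91.4 expected counts. The kallisto layout gave this class 10.3% and 10.8%. It placed a further 15.2% in replicate 2 and 18.2% in replicate 1 on Ntrk3-212 and Ntrk3-214, whose coding end is not annotated and which the RSEM layout listed at 0. Ntrk3-212 had 18.1 TPM in replicate 2 and 5.42 TPM in replicate 1 in that layout, on 42.4 and 12.6 estimated counts. Ntrk3-214 was at 0 in replicate 2 and had 16.9 TPM in replicate 1, on 39.9 estimated counts. Short transcripts turn few reads into a high TPM, and these were left out of the full-length share.

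**Figure D4:**
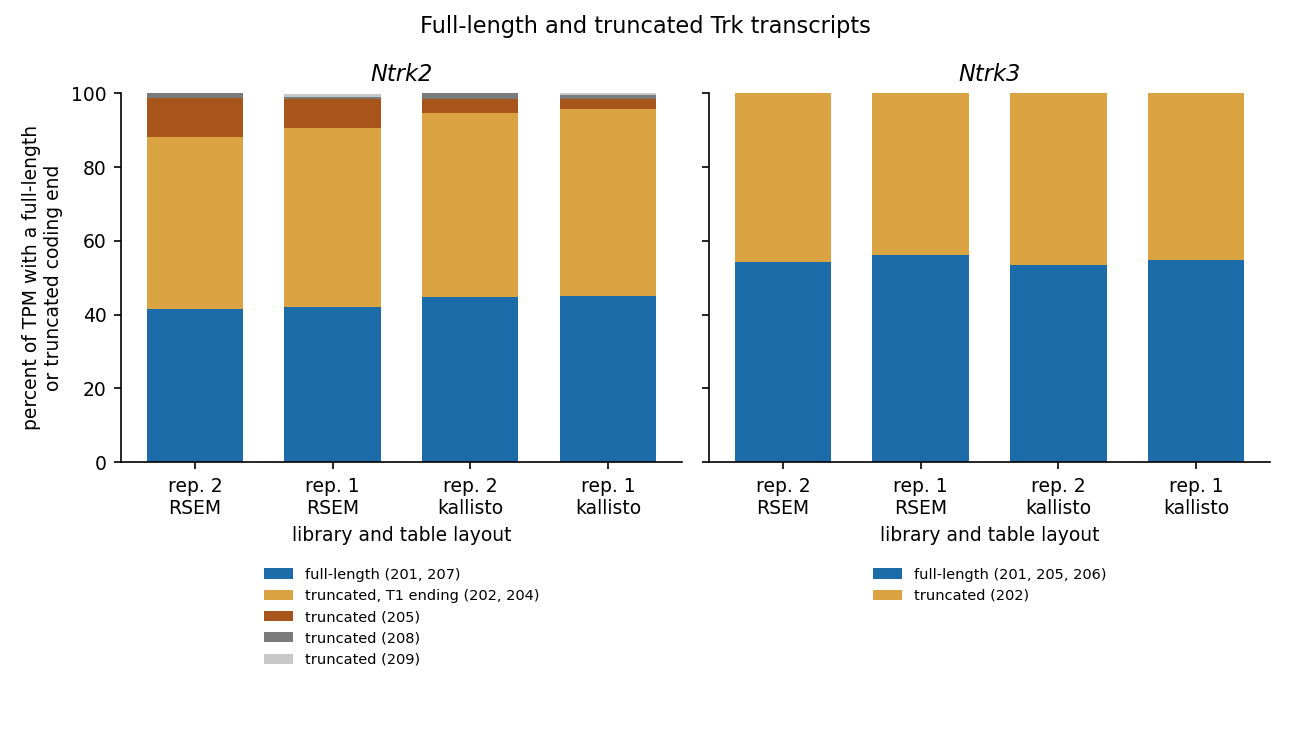
Percent of the TPM of transcripts with a full-length or truncated coding end, for Ntrk2 on the left and Ntrk3 on the right, in replicate 2 and replicate 1 of the RSEM and kallisto layouts. Blue, the full-length share, is 41.6% and 42.1% for Ntrk2 and 54.2% and 56.2% for Ntrk3 in the RSEM layout.

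Full-length Ntrk3 transcripts differed further by 2 small exons that add codons inside the kinase domain, where inserts are known to alter TrkC signalling. The exon of 42 bases lies at chr7:78204103-78204144 and that of 75 bases at chr7:78229487-78229561. Both are shown as the coding strand, from the GENCODE M21 transcripts.
Exon of 42 bases: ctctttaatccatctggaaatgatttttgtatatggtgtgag
Exon of 75 bases: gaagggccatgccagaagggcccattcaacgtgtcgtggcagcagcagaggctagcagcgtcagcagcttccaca

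The 14 codons of the exon of 42 bases are in Ntrk3-205 and Ntrk3-206, which made up 46.9% of full-length TPM in replicate 2 and 48.9% in replicate 1. The 25 codons of the exon of 75 bases are in Ntrk3-206 alone, at 5.31% in replicate 2 and 15.8% in replicate 1. The kallisto layout gave 43.5% and 44.2% for the first, and 13.7% and 21.9% for the second. Ntrk3-206 had 1.63 TPM in replicate 2 and 5.11 TPM in replicate 1, with intervals of 0.591 to 3.35 and 3.23 to 6.93 that overlapped narrowly. By reads, transcripts with the exon of 42 bases took 10.4% of the full-length reads in replicate 2 and 11.3% in replicate 1. The annotated insert-bearing transcripts have 2678 and 2774 bases and the one without inserts 19703 bases, so the share of inserts rests strongly on how the long transcript's length is counted.

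Ngfr, the p75 receptor, was low, near the level of 1 TPM by which genes were counted as detected here. The gene lies at chr11:95568818-95587735 on the minus strand, and its 1 annotated transcript codes for 427 codons. It had 87 counts in replicate 2 and 65 in replicate 1, a fold of 1.31 with a 95% interval of 0.937 to 1.83 that covers counting error only. In the kallisto layout the fold was 1.51. Sort1 had 152 times the TPM of Ngfr in replicate 2 and 198 times in replicate 1.

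Cell types known to express Ngfr were checked by their markers. The markers of cholinergic neurons, the p75-rich cells of the basal forebrain, summed to 0.250 TPM in replicate 2 and 0.170 TPM in replicate 1 over 3 genes, with 2 counts of Chat in each library. Of the Schwann cell markers, Sox10, with a TPM of 9.95 in replicate 2 and 14.5 in replicate 1, is also expressed in oligodendrocytes. All 7 meningeal fibroblast markers were higher in replicate 2, 6 of them by more than 2-fold, and their summed TPM was 93.5 in replicate 2 and 55.7 in replicate 1. None of these 7 was at 0 in either library. Mural cell markers summed to 25.6 TPM in replicate 2 against 25.4 in replicate 1, most of it Rgs5 at 15.6 and 17.5 TPM. Of the other mural markers, Acta2 was 1.56-fold and Pdgfrb 1.27-fold in replicate 2 over replicate 1, and the median log2 difference of the 3 with a mean of 50 counts or more was 0.35, against 0.39 for Ngfr. The part of these cells in the Ngfr values was not tested.

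Sort1, which encodes sortilin, was the most abundant of the 6 and most of it came from 1 transcript. The gene lies at chr3:108284082-108361511 on the plus strand, with 2 coding transcripts and 1 with a retained intron. Sort1-201, of 825 codons, had 123 TPM in replicate 2 and 128 TPM in replicate 1. Sort1-203, of 858 codons, had 18.7 and 19.0 TPM and differs in its coding sequence by an extra exon of 99 bases, at chr3:108355472-108355570, shown here from the GENCODE M21 transcripts because it is the only coding difference.
Exon of 99 bases: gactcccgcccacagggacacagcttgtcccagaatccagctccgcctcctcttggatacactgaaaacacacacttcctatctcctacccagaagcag

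Transcripts with this exon took 13.2% of coding Sort1 TPM in replicate 2 and 12.9% in replicate 1, and 21.5% and 20.3% in the kallisto layout. The exon overlaps the first exon of the retained-intron transcript Sort1-202, which had 3.17 TPM in replicate 2 against 3.86 TPM in replicate 1. The share moved more between the layouts than between the libraries.

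None of the 6 genes differed by more than 2-fold between the libraries. Of the 14307 genes that averaged 50 counts or more, 0.384% passed that fold, which leaves 0 of 6 near the background. At 1.2-fold, passed by 10.4% of those genes, 1 of the 6 was counted, and that was Ngfr. After TMM scaling the fold of replicate 2 over replicate 1 was 1.05 for Ntrk2, with an interval of 1.03 to 1.07, and 1.03 for Ntrk3, with an interval of 1.00 to 1.05. It was 1.06 for Bdnf (0.982 to 1.15), 1.07 for Ntf3 (0.864 to 1.32) and 1.00 for Sort1 (0.987 to 1.02). These folds come from counts, of which Ntrk3 had 12725 in replicate 2 and 12098 in replicate 1. The TPM of Ntrk3 went the other way, with 68.8 in replicate 2 and 73.5 in replicate 1, so no direction is read for that gene. The intervals cover counting error only and leave out the spread between animals.

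Replicate 2 held 36307276 gene counts, against 35358099 for replicate 1. Markers of excitatory neurons, the main projection neurons of the hippocampus, were abundant in both, with Camk2a at 1278 and 1333 TPM and Slc17a7 at 509 and 541 TPM. Beside the fibroblast markers, choroid plexus markers differed between the libraries, with a summed TPM of 54.3 in replicate 2 and 158 in replicate 1. Oligodendrocyte markers summed to 816 TPM in replicate 2 against 1128 TPM in replicate 1, and astrocyte markers, from cells known for truncated TrkB, to 1167 and 1215 TPM. By TMM-scaled counts 5 of the 6 astrocyte markers were nominally higher in replicate 2 and 1 was lower, with a median log2 difference of 0.03. The astrocyte sums thus do not show fewer astrocyte transcripts in replicate 2.

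The wider pathway was largely present. Of 98 genes in 7 lists, 91 had at least 1 TPM in both libraries. Among all nuclear protein-coding genes, 12720 of 22015 did. No comparison with other gene lists was made, so the counts of detected genes describe these lists only. None of the 91 that averaged 50 counts or more passed 2-fold, 43 were nominally higher and 48 lower in replicate 2, and their median log2 difference was -0.01, against 0.00 over all genes tested. Among the other ligands, Ntf5, which encodes neurotrophin-4, had 0.0600 TPM in replicate 2 and 0.0400 TPM in replicate 1.

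Of 9 other receptors and coreceptors, 8 were detected. Lingo1, a partner of p75 in axon growth inhibition, led with 108 TPM in replicate 2 and 106 TPM in replicate 1. Sorl1, a sorting receptor related to sortilin, had 72.1 and 77.9 TPM, and Islr2, a Trk-interacting membrane protein, had 46.0 and 49.4 TPM.

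Proneurotrophin processing had 11 of 16 genes detected. Cpe, carboxypeptidase E, which also takes part in the sorting of proBDNF, led with 1033 TPM in replicate 2 and 1052 TPM in replicate 1. Serpini1, the protease inhibitor neuroserpin, had 87.6 and 86.7 TPM, and the convertase gene Pcsk2 had 67.0 and 65.8 TPM. Mmp7, a matrix metalloproteinase able to cleave proBDNF, was listed at 0 in both, and Plg, the precursor of the proBDNF-cleaving protease plasmin, was also listed at 0.

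All 23 Trk adaptors and transducers were detected, led by Ptprs, a receptor phosphatase, with 233 TPM in replicate 2 and 246 TPM in replicate 1. Ndfip1, an adaptor of ubiquitin ligases, had 188 and 196 TPM, and Kidins220, a scaffold at Trk receptors, had 132 and 140 TPM. Shc4 was lowest with 1.80 and 1.64 TPM. All 11 p75 adaptors were detected too, led by Maged1 at 215 and 222 TPM, Bex3 at 115 and 121 TPM and Arhgdia at 115 and 118 TPM, with Ripk2 lowest at 2.24 and 2.18 TPM.

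The kinase arms below the receptors had 21 of 21 genes detected. Map2k1, a kinase of the MAP kinase cascade, had 137 TPM in replicate 2 and 143 TPM in replicate 1. Rps6ka1 was lowest with 5.59 and 4.29 TPM. Of the regulators of Bdnf promoters, 16 of 16 were detected, led by Mef2d at 80.5 and 82.7 TPM, Crtc1, a coactivator of CREB, at 76.4 and 77.7 TPM, and Arnt2 at 63.0 and 64.8 TPM. Rest, a repressor of neuronal genes in other cells, was lowest with 1.61 and 1.72 TPM.

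**Figure D5:**
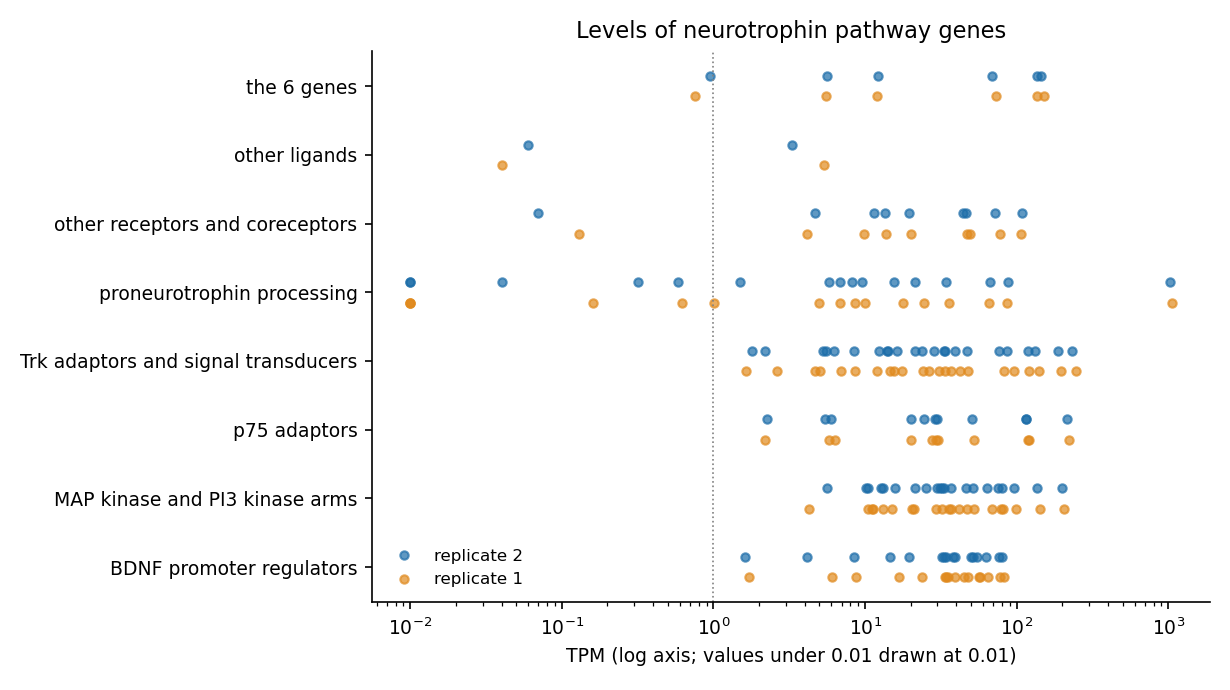
TPM on a log axis of the 6 genes and of the 98 genes in 7 pathway lists, replicate 2 above replicate 1 in each row, with a dotted line at 1 TPM. The list of processing genes spans the widest range, with Cpe at 1033 and 1052 TPM and 2 genes at 0 in replicate 2 and 3 in replicate 1, and Ngfr lies left of the line.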

How the data were processed

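Total RNA was measured in 2 libraries of 1 group. Per the file headers, the deposited gene and transcript tables have the columns of RSEM, with the authors' expected counts, TPM, percent of the gene on each transcript, and interval bounds, a signal value given with the posterior mean. A second deposited transcript table has the columns of kallisto, with estimated counts and TPM. Notes deposited with the tables name mm10 and GENCODE M21. The aligner, its version and the strand setting were not given in the sources used here, so antisense genes may share reads. Expected counts were rounded, and 26248 rows without a gene name, with 6.00 counts in replicate 2 and 2.78 in replicate 1, were left out.

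Scaling used TMM factors of edgeR 4.0.16 (R 4.3.3), computed after filterByExpr. Folds are replicate 2 over replicate 1, with exact binomial 95% intervals conditional on the summed counts, and were counted only at a mean of 50 counts or more. A transcript was full-length where its last coding exon is that of the longest coding sequence of the gene. Shares use full-length and truncated transcripts only. Bdnf transcripts with overlapping first exons were summed. The rule named the 6 genes, transcripts with at least 5% of their gene in either layout, and in each pathway list the 3 highest, the lowest and any past 2-fold. Plg, Ntrk2-208 and Ntrk2-209 were named after their values were seen. Some genes that the rule names are not reported here. Alternatives were the second layout, reads in place of TPM, scaling by library totals, by ERCC counts or by DESeq2 (1.42.0) size factors, other thresholds and each library alone. The fold calculation was tested on simulated data. The members, lists and markers were chosen with earlier results of these data known.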

Additional observations from a re-analysis of the deposited data

How the results depend on the processing

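No paired analysis was possible because the design has 1 group. A value for each library alone always lies within the SD of 2 libraries, so it tests nothing here. With kallisto-layout TPM the means were 18.1 for Bdnf, 9.05 for Ntf3, 217 for Ntrk2, 121 for Ntrk3, 1.42 for Ngfr and 228 for Sort1. Rescaled to nuclear protein-coding genes they were 29.3, 13.6, 334, 174, 2.10 and 362 TPM for the same genes. Posterior means were 11.8 for Bdnf, 5.47 for Ntf3 and 134 for Ntrk2. The full-length share of Ntrk2 was 44.9% with kallisto TPM, 51.7% with RSEM counts and 53.6% with kallisto counts. Over all annotated transcripts, an alternative chosen after seeing the data, it was 41.1% with RSEM TPM and 43.8% with kallisto TPM. The full-length share of Ntrk3 was 78.4% with RSEM counts and 79.5% with kallisto counts, and over all annotated transcripts 44.3% with RSEM TPM and 39.4% with kallisto TPM. The share of Bdnf exon VI was 36.6% with kallisto TPM and 36.0% with kallisto counts. At 1.2-fold 1 gene was counted in place of 0, and the other scalings and count minimums gave 0. The number of pathway genes detected was 93 at 0.1 TPM, 80 at 5 TPM and 92 with kallisto TPM, against 91. With each library alone, Bdnf ranged from 11.9 to 12.1 TPM, Ntf3 from 5.50 to 5.62, Ntrk3 from 68.8 to 73.5, Ngfr from 0.760 to 0.950 and Sort1 from 145 to 151, with Ntrk2 at 136. The Ntrk2 share ranged from 41.6% to 42.1%, that of Ntrk3 from 54.2% to 56.2% and that of exon VI from 38.2% to 42.0%. The cause of these shifts was not tested. With 65 to 87 counts, depth limits the precision for Ngfr most.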

Other observations

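Several annotated genes overlap the 6 genes, and how their reads were divided is not given in the sources used here. Gm45346, antisense to exons I and II of Bdnf, had 2 counts in each library, against 1291 in replicate 2 and 1185 in replicate 1 for Bdnf. The antisense gene Gm9885, inside Ntrk3, had 83 counts in replicate 2 and 100 in replicate 1. C630044B11Rik, on the strand of Ntrk2, had 81 and 92 counts, and Gm43099, on the strand of Sort1, had 124 and 152 counts. The other 7 overlapping genes had at most 6 counts each.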
